A study of Mus musculus with 4 samples.

Results

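Thbs1, Fn1, Vcan, F13a1, F10, F3, Plau and Plaur are 8 genes of the provisional matrix, the clotting cascade and the plasminogen system, and were followed from monocytes to macrophages and in tumor cells of Lewis lung carcinoma (LLC) tumors. They were matched by symbol and were listed in all 4 libraries, 8 of the 18605 genes that every table held. Single-cell RNA sequencing with the SeekOne MM kit, which reads the 3′ end of a transcript and counts unique molecular identifiers (UMIs), had been performed on subcutaneous tumors of C57/BL6N mice aged 6-8 weeks. LLC is an established mouse lung carcinoma cell line, and all tumors came from this 1 line. The control group (NT) was a single mock-treated library of 3 pooled tumors. The radiotherapy group (RT) was 3 libraries of 1 tumor each (RT1, RT2 and RT3), taken 72 h after 24 Gy in 3 fractions of 8 Gy. The deposited tables held 69667759 UMIs in 10141 barcodes for NT, 78585759 in 15346 for RT1, 108699844 in 14994 for RT2 and 85660188 in 15324 for RT3.

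After filtering, 55058 cells remained, and clusters were named from markers: 23959 tumor cells, 5462 monocyte-like cells, 7082 macrophage-like cells, 870 dendritic-like, 576 neutrophil-like, 1703 lymphocyte-like, 423 fibroblast-like and 314 endothelial-like cells, called below by the cell type alone. The 8 genes and the pathway lists used below took no part in building the clusters. A further 7661 cells formed a cluster led by Gdpd2, Nppc, Islr, Lum and Ccl11 that was nearest to tumor cells but stayed unnamed, and is given by itself as the Lum-led cluster. Another 7008 cells of shallow or mixed clusters were unnamed and are in no comparison. Levels of markers from the lists that gave the names are shown next, so they describe the clusters and are no independent check. The tumor marker Rhox5 had 1069 to 1331 CPM (UMIs of a gene per 1000000 UMIs of that cell type in a library) in tumor cells. Its level was 969 to 1209 CPM in the Lum-led cluster, 52.3 to 75.8 CPM in monocytes and 26.2 to 50.4 CPM in macrophages. The tumor markers Hmga2, Krt8 and Krt18 were likewise higher in tumor cells than in monocytes and macrophages. Mdk, also a tumor marker, went the other way. It had at most 0.24 CPM in tumor cells, but at least 1.34 CPM in monocytes and 1.57 CPM in macrophages. Krt7, the remaining tumor marker, was low in tumor cells, at most 0.32 CPM. The 6 monocyte markers summed to 3213 CPM in NT and 5178 to 8079 CPM in the RT monocytes, against 219 to 469 CPM in macrophages. Neutrophils went against a clean label, with Rhox5 at 593 to 721 CPM and a median of 640 to 925 UMIs per cell, so their place in the order of cell types is uncertain. Between any 2 libraries, 1.73% to 1.83% of the kept barcodes of the smaller one were shared. The share of cells among the 8% highest doublet scores of their library was 0.445% to 1.49% in monocytes, 1.97% to 3.08% in macrophages and 6.37% to 8.56% in tumor cells.

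Monocytes that leave the blood carry part of the machinery of clotting and of early wound matrix. Tissue factor, the product of F3, starts the extrinsic clotting pathway and activates factor X, the product of F10, and the F13a1 product is the subunit of the transglutaminase that crosslinks fibrin and binds fibronectin to it. Thrombospondin 1 (Thbs1), fibronectin (Fn1) and versican (Vcan) are secreted into the provisional matrix, and urokinase (Plau) bound to its receptor (Plaur) turns plasminogen into plasmin, which removes fibrin. Macrophages of tissue are known for F13a1, and tissue factor is known in many carcinoma cells.

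The 250 bases before the transcription start are shown for 4 genes, which cover the cell types in which most of the group was highest: F3 was highest in tumor cells, Plaur and Vcan in monocytes, and F13a1 in macrophages. RefSeq sequence on GRCm38.p6 was at hand for 5 of the 8 genes (Vcan, F13a1, F10, F3 and Plaur). This is a different build from that of the deposited counts and served for sequence only. Capitals mark matches, on either strand, to 4 motifs: the AP-1 motif TGANTCA, the PU.1 core GAGGAA, the hypoxia response element core ACGTG and the EGR1 motif GCGGGGGCG. The windows, in the order printed, are chr3:121723287-121723536 on the plus strand, chr7:24462233-24462482 on the plus strand, chr13:89742513-89742762 on the minus strand and chr13:37050245-37050494 on the minus strand.
F3: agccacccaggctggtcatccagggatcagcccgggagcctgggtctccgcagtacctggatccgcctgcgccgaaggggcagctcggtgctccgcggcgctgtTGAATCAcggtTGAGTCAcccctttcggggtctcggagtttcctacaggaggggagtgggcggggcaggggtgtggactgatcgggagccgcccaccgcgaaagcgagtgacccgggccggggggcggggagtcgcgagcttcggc
Plaur: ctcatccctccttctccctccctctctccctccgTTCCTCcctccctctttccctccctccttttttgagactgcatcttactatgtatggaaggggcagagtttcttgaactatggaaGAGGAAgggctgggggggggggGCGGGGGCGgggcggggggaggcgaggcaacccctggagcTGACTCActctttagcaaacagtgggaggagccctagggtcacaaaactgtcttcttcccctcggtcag
Vcan: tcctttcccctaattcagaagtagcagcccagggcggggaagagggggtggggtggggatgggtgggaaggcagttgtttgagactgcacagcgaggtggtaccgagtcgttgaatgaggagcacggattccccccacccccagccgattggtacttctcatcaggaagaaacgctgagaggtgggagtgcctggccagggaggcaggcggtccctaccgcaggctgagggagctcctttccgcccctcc
F13a1: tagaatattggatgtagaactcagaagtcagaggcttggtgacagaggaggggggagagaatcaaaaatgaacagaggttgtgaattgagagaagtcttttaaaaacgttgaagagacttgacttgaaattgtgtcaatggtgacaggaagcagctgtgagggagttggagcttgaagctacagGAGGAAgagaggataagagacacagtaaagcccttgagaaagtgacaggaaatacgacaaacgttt
F3 held 2 AP-1 matches, which began 146 and 135 bases before the start. Plaur held 1 AP-1 match at 69 bases, PU.1 matches at 216 and 131 bases and an EGR1 match at 109 bases, and F13a1 held 1 PU.1 match at 66 bases. RefSeq gives F13a1 a second start, whose window at chr13:37049214-37049463 on the minus strand held no match, and the window printed is the more upstream on that strand. The Vcan window held none of these letters. Of 32851 RefSeq windows of the same length, 6.75% held an AP-1 match, 23.3% a PU.1 match, 16.6% the hypoxia core and 2.57% the EGR1 motif. No match overlapped another, and a match describes the sequence and is not evidence of binding.

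The first question was where each gene was read. Thbs1, which encodes the matricellular protein thrombospondin 1, was highest in monocytes, at 8245 CPM in NT, 8467 in RT1, 5317 in RT2 and 10421 in RT3. No other named cell type reached that range: neutrophils followed at 2533 to 4872 CPM, dendritic cells at 1355 to 2865 CPM and macrophages at 1322 to 2142 CPM. The ranges of these 3 overlapped in turn, while lymphocytes (75.4 to 133 CPM) and tumor cells (22.4 to 48.2 CPM) lay below all of them. Monocytes were 4.70% of the kept NT cells and 10.5% to 11.95% of the RT cells, yet they held 39.7% of all Thbs1 UMIs in NT and 45.3% to 55.7% in the RT libraries.

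**Figure D1:**
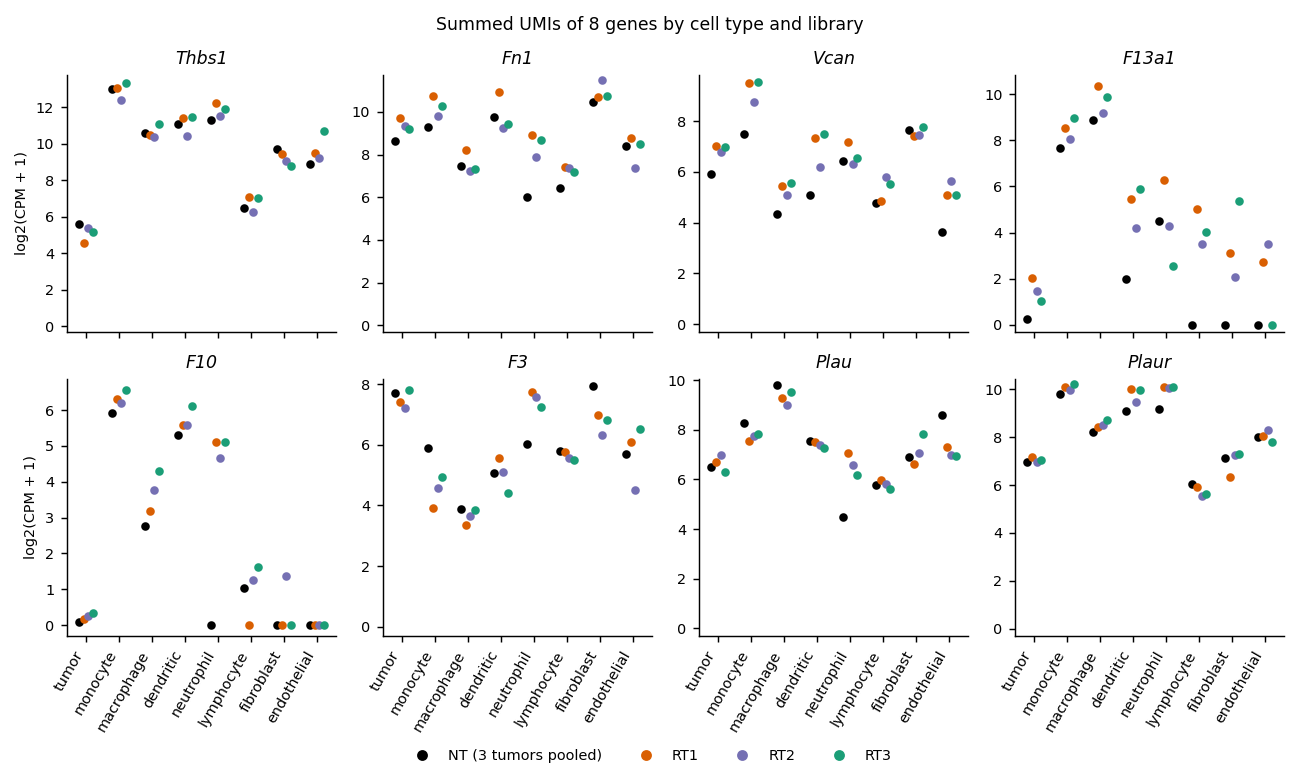
Level of each gene as log2(CPM + 1) of summed UMIs (vertical axis) in 8 named cell types (horizontal axis); each point is 1 library, NT in black and RT1, RT2 and RT3 in color. Thbs1, Vcan, F10 and Plaur were highest on average in monocytes, F13a1 and Plau in macrophages, F3 in tumor cells and Fn1 in fibroblasts.

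Fibronectin and versican were shared between stromal, myeloid and tumor cells. Fn1 was highest in fibroblasts, at 1419 to 2848 CPM, followed by monocytes (615, 1707, 891 and 1227 CPM in NT, RT1, RT2 and RT3), dendritic cells (610 to 1927 CPM) and tumor cells (398 to 832 CPM), and each of these neighbors overlapped the next. NT held only 18 fibroblasts. Vcan, a large chondroitin sulfate proteoglycan, was highest on average in monocytes, at 176 CPM in NT, 730 in RT1, 428 in RT2 and 741 in RT3, but the NT value lay within the fibroblast range of 171 to 217 CPM. Tumor cells had Vcan at 58.7 to 128 CPM and macrophages at 19.1 to 46.4 CPM. Tumor cells were 33.7% to 58.8% of the kept cells, and with the Lum-led cluster they held most UMIs of both genes. Tumor cells alone held 53.8% to 73.3% of the Fn1 UMIs and 36.2% to 63.6% of those of Vcan.

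The 3 clotting genes were each highest in a different cell type. F13a1 was highest in macrophages, at 476, 1297, 588 and 938 CPM in NT, RT1, RT2 and RT3, and monocytes followed at 204, 366, 265 and 503 CPM. These ranges overlapped across libraries, but no other named type was above 76.5 CPM, and macrophages held 64.1% to 79.2% of its UMIs. F10 was highest in monocytes at 59.2, 77.7, 72.1 and 92.7 CPM, followed by dendritic cells at 38.8 to 67.8 CPM, which overlapped. Neutrophils (0 to 33.7 CPM, where NT had 21 cells) and macrophages (5.77 to 18.6 CPM) did not reach either. In endothelial cells F10 had no UMI in any library, which allows at most 4.39 to 24.6 CPM for a floor of 3 UMIs per library. F3 was highest on average in tumor cells, at 210, 170, 146 and 222 CPM, with overlap from neutrophils and fibroblasts. The Lum-led cluster was higher still, at 283, 320, 342 and 441 CPM, a range that lay above that of tumor cells. Macrophages had the lowest F3 level, 9.32 to 13.8 CPM, and their range lay below that of every other named type.

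The protease and its receptor were highest in different myeloid cells. Plau was highest in macrophages, at 888, 619, 518 and 740 CPM in NT, RT1, RT2 and RT3. The next in order, monocytes at 184 to 306 CPM, did not overlap them. Plaur was highest in monocytes at 891, 1084, 1011 and 1181 CPM, and neutrophils at 579 to 1095 CPM and dendritic cells at 547 to 1042 CPM overlapped monocytes. Macrophages followed at 296 to 423 CPM, below all 3, and tumor cells had 123 to 142 CPM. Both genes were also read in the tumor cells themselves, which held 31.8% to 45.8% of the Plau UMIs and 34.5% to 69.8% of the Plaur UMIs.

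The step from monocytes to macrophages was then taken within each library. A gene was counted when its log2 ratio was at least 1 in the same direction in all 4 libraries, with 0.5 UMI added to each sum and at least 200 UMIs in the populations compared. Of the 8 genes, 5 were counted as higher in monocytes (Thbs1, Fn1, Vcan, F10 and Plaur) and 1, Plau, as higher in macrophages. Over all 8327 genes tested, 2.69% were counted as higher in monocytes and 3.28% as higher in macrophages. The 8 genes were chosen with earlier results of these data known, so an excess over these shares is not read as a result. No test was made, since the cell types are clusters of the same cells.

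**Figure D2:**
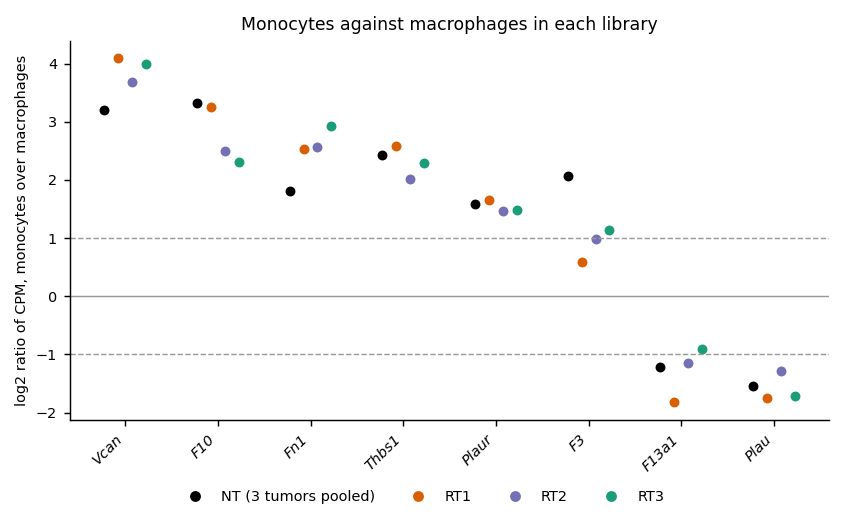
Log2 ratio of CPM in monocytes over macrophages (vertical axis) for the 8 genes (horizontal axis, ordered by mean), with 1 point for each of the 4 libraries and dashed lines at 1 and -1. Thbs1, Fn1, Vcan, F10 and Plaur lay above the upper line in all 4 libraries and Plau below the lower line, and the NT value was the lowest of the 4 for Vcan and Fn1 and the highest for F3 and F10.

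Versican differed most. Its log2 ratio was 3.20 in NT, 4.10 in RT1, 3.69 in RT2 and 3.99 in RT3, a mean of 3.74 ± 0.40 (SD, n = 4 libraries), or 13.4-fold. F10 was higher in monocytes by a log2 ratio of 2.85 ± 0.52, Fn1 by 2.46 ± 0.47, Thbs1 by 2.32 ± 0.24 and Plaur by 1.55 ± 0.09 (SD, n = 4 each). Plaur thus had the narrowest spread over libraries of the 8 genes, and Thbs1 was 5.01-fold higher. Plau was higher in macrophages in all 4 libraries, with a log2 ratio of -1.57 ± 0.21. F13a1 was on the macrophage side in all 4 as well, at -1.27 ± 0.39, but its value of -0.90 in RT3 kept it from being counted. F3 had a ratio of 1.19 ± 0.62, with 0.60 in RT1 and 2.07 in NT, and was not counted. Plau was not counted at clustering resolution 0.4 and Fn1 not without integration, while F13a1 was counted without RT3 and F3 with at most 10% mitochondrial UMIs. The median ratio was 1.94 over the 8 genes and 0.03 over all genes tested, which is likewise not read as a result, given how the 8 genes were chosen.

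Other genes of the same pathways were counted across this step in both directions. In the list of matricellular and provisional matrix genes, Thbs1 and Fn1 were the 2 counted as higher in monocytes among 7 tested, and none was counted in macrophages. Among 4 tested genes of versican and hyaluronan, 2 were higher in monocytes: Vcan and the hyaluronan receptor Cd44 (log2 ratio 1.76 ± 0.16). Of 18 tested matrix receptors, 2 were higher in monocytes, Cd44 and Itga5, the fibronectin receptor subunit (1.61 ± 0.37), and 2 in macrophages. These were Itga9, an integrin subunit, at -2.90 ± 1.29, and the thrombospondin receptor Cd36 at -1.81 ± 0.30. Cd36 had 84.0 CPM in NT monocytes and 47.4 to 52.4 CPM in RT monocytes, against 172 to 219 CPM in macrophages, with no overlap.

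Of 6 tested coagulation factors, F10 and factor V (F5) were higher in monocytes, and Vkorc1, which recycles vitamin K for the clotting factors, was higher in macrophages at a log2 ratio of -1.73 ± 0.14. F5 had 26.2, 33.4, 19.9 and 43.3 CPM in monocytes and 0.44, 11.4, 6.74 and 10.2 CPM in macrophages, where the NT value was a single UMI. Tfpi, the inhibitor of tissue factor, was the 1 gene counted among 5 anticoagulants and thrombin receptors, higher in macrophages at -1.79 ± 0.36. Among 9 tested genes of plasminogen activation, Plaur and Serpinb2, an inhibitor of urokinase, were higher in monocytes (Serpinb2 at 1.90 ± 0.53), and Plau was higher in macrophages.

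Macrophages, monocytes and dendritic cells were clustered again without these genes, which gave 3 monocyte and 6 macrophage sub-clusters beside dendritic and unnamed ones. They were ordered by the mean log2 level of the monocyte markers minus that of the macrophage markers. The order ran from sub-cluster 1, led by Chil3 and Lcn2 (3.54), through 5, led by interferon-induced Ifit genes with Ly6c2 (2.05), and 2, led by Ppbp, Areg and Cxcl3 (-0.95), to the macrophage sub-clusters 11, cycling cells (-3.21), 7, led by Cxcl5, Mmp12 and Gpnmb (-3.47), 10, with Ifit genes (-5.33), 3, shallow cells with Lyve1 (-5.45), 4, led by Marco and Mmp9 (-5.73), and 0, led by Cd209f, Lyve1 and Ccl8 (-6.17).

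Along this order 5 genes were highest in sub-cluster 1 and lowest in sub-cluster 0. Vcan spanned 66.4-fold between the means of these ends (804 and 12.1 CPM), Fn1 39.7-fold (1603 and 40.4 CPM), F10 34.2-fold (118 and 3.44 CPM), Thbs1 18.1-fold (10010 and 554 CPM) and Plaur 5.84-fold (1219 and 209 CPM). Sub-cluster 1 was highest in all 4 libraries for Vcan, F10, Thbs1 and Plaur and in 3 of 4 for Fn1. The fall was not even. Macrophage sub-cluster 7 had Thbs1 at 6006, 6108, 4811 and 7409 CPM in NT, RT1, RT2 and RT3, beside 314 to 685 CPM in sub-cluster 0, so a macrophage sub-cluster overlapped the monocyte sub-clusters 5 and 2. The same sub-cluster had Plaur at 671 to 1184 CPM and Fn1 at 482 to 1007 CPM.

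Plau and F13a1 took the opposite course. Plau had 53.2 to 93.5 CPM in sub-cluster 1, 224 to 429 CPM in 5 and 275 to 458 CPM in 2, and reached 588 to 1141 CPM in sub-cluster 0. The most monocyte-like cells thus had the lowest Plau level in each library, below all other monocyte sub-clusters. F13a1 was spread more evenly, from 222 CPM in sub-cluster 5 to 955 CPM in sub-cluster 0 (means of 4 libraries), a 4.29-fold range, and its highest sub-cluster was the same in only 2 of 4 libraries. Means for F3 in the 9 sub-clusters stayed between 5.34 and 49.2 CPM.

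The share of cells in which a gene was detected was compared after thinning each cell to 2000 UMIs, with lymphocytes as background for free RNA. Lymphocytes had more tumor RNA than monocytes, with Rhox5 at 215 to 338 CPM, so this background is high for genes of tumor cells. They also had more myeloid RNA than tumor cells, with macrophage markers at 66.9, 533, 382 and 163 CPM in NT, RT1, RT2 and RT3 against 5.97, 35.5, 59.2 and 21.9 CPM, and 10.4% to 14.1% of them were among the highest doublet scores. For a myeloid gene in tumor cells this background is therefore high as well, and a share that does not exceed it is read in neither direction. Thinning left 103 of 469 NT monocytes and 421, 1076 and 271 in RT1, RT2 and RT3, since median depth was 1219 UMIs in NT monocytes and 1257 to 2313 in the RT monocytes, 2283 to 4313 in macrophages, 6594 to 9764 in tumor cells and 1363 to 1931 in lymphocytes. Thbs1 was detected in 84.5% to 94.8% of monocytes, 41.6% to 53.9% of macrophages and 3.73% to 6.25% of tumor cells, and in 3.57% to 7.75% of lymphocytes, and the ranges of tumor cells and lymphocytes overlapped. Without thinning, these shares were 81.7% to 91.5%, 44.8% to 62.1%, 8.89% to 16.4% and 2.58% to 7.41%.

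**Figure D3:**
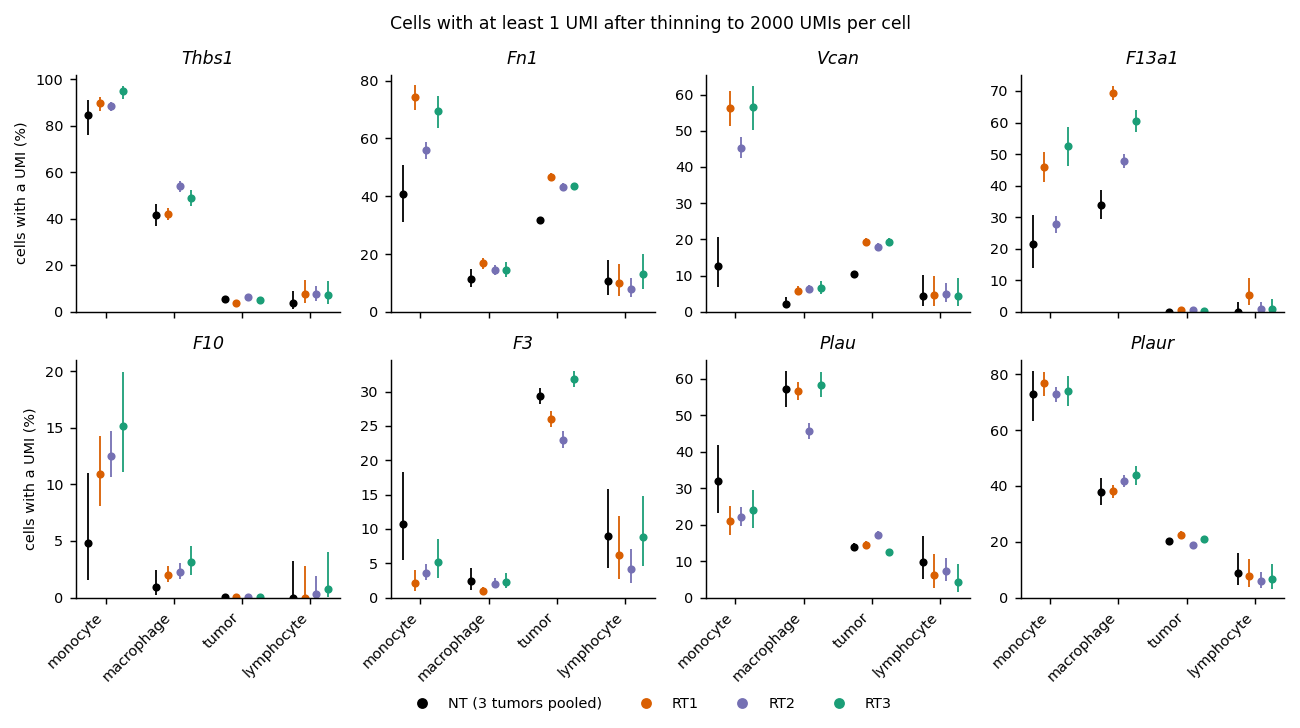
Percent of cells with at least 1 UMI of each gene (vertical axis) after every cell was thinned to 2000 UMIs, in monocytes, macrophages, tumor cells and lymphocytes (horizontal axis), with 1 point per library and bars for exact 95% Clopper-Pearson intervals, which cover counting error only. For Vcan the NT monocytes (12.6%) lay below all RT monocytes (45.4% to 56.5%), and F3 in monocytes lay within the intervals of lymphocytes or below them.

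Vcan was detected in 12.6% of thinned NT monocytes (95% interval 6.89% to 20.6%) and in 56.3%, 45.4% and 56.5% of those of RT1, RT2 and RT3, where the unthinned shares were 17.1%, 49.2%, 46.1% and 48.5%. Lymphocytes had 4.38% to 4.78%, and macrophages, at 2.16% to 6.61%, were near that share. Plaur was detected in 72.8% to 76.7% of monocytes, 38.0% to 43.8% of macrophages and 18.8% to 22.6% of tumor cells, all above the 5.80% to 8.93% of lymphocytes. F3 was detected in 22.9% to 31.8% of tumor cells and 4.10% to 8.93% of lymphocytes. In macrophages its share was 0.954% to 2.40% and in RT monocytes 2.14% to 5.17%. The 10.7% of NT monocytes had an interval of 5.45% to 18.3%, which held the 8.93% of NT lymphocytes. These shares were not above that of lymphocytes beyond counting error, but Rhox5, as a measure of tumor RNA, was 402% to 645% as high in lymphocytes as in monocytes. The F3 level in monocytes was 27.6%, 8.21%, 15.6% and 13.3% of that in tumor cells in NT, RT1, RT2 and RT3, and in macrophages 5.48% to 7.90%, where Rhox5 was at 4.12% to 6.37% and 2.45% to 4.23%. F3 lay above Rhox5 in both cell types and all 4 libraries, and how much of it was free RNA was not tested. In tumor cells F10 was detected in 0.0217% to 0.0366% and F13a1 in 0.0713% to 0.629%, beside at most 0.73% and 5.43% of lymphocytes.

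RT libraries were compared with NT in each cell type. A gene was counted when its log2 ratio against NT was at least 1 in the same direction in RT1, RT2 and RT3. With 1 NT library the spread within NT could not be estimated, so no test between NT and RT was made, and all 3 ratios share that library. The minimum of 200 UMIs was set over NT and RT together, so a gene low in NT could pass it through RT alone. The pooling of 3 tumors in NT, the library itself and the treatment cannot be told apart.

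**Figure D4:**
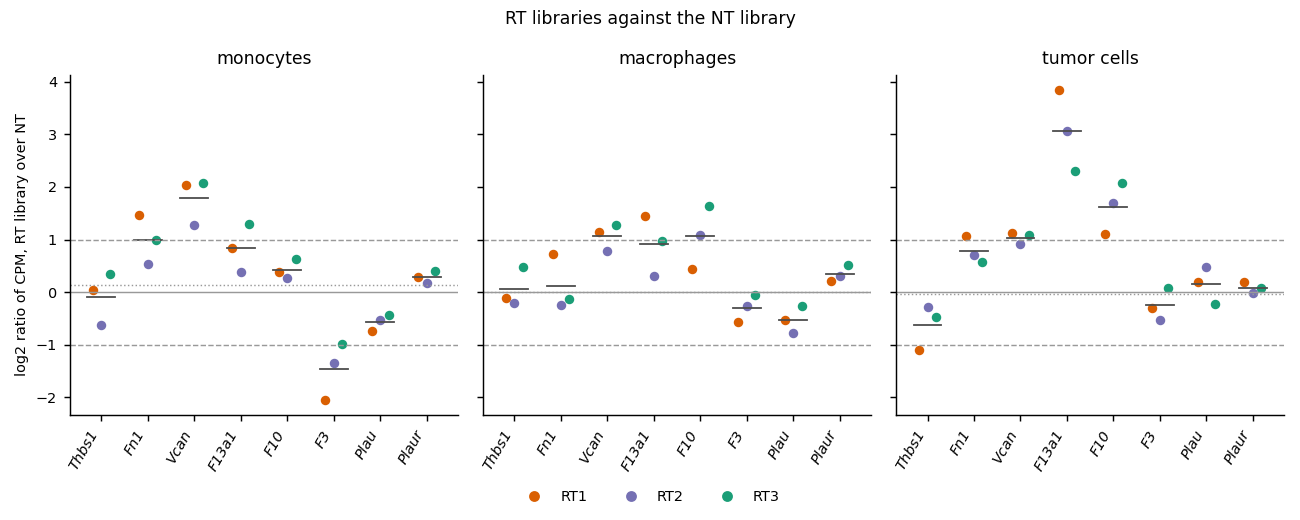
Log2 ratio of CPM in each RT library over NT (vertical axis) for the 8 genes (horizontal axis) in monocytes, macrophages and tumor cells, with short bars for the mean of 3, dashed lines at 1 and -1 and a dotted line at the median of all genes. Vcan in monocytes and F13a1 in tumor cells were the genes with all 3 points above 1 and at least 200 UMIs, which F13a1 (11 UMIs in NT) reached only through RT; F10 in tumor cells had 3 UMIs in NT and was not tested.

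In monocytes 1 of the 8 genes, Vcan, was counted as higher in RT and none as lower, where 4.05% of the 5133 genes tested were counted as higher and 0.701% as lower (208 and 36 genes, against 146 and 55 under TMM scaling). Its level was 176 CPM in NT, with a 95% Poisson interval of 147 to 210 for counting error only. RT1, RT2 and RT3 had 730, 428 and 741 CPM, or 633 ± 178 CPM (SD, n = 3). All RT values lay above the NT interval, and the log2 ratio was 1.80 ± 0.45, or 3.47-fold, where the median of all genes was 0.13. The 3 monocyte sub-clusters had similar shares in NT (44.8% in sub-cluster 1, 36.0% in 2 and 19.2% in 5) and in RT (40.6% to 51.4%, 31.9% to 34.3% and 16.8% to 26.1%). Within sub-cluster 1 Vcan had 346 CPM in NT against 1107, 685 and 1078 CPM in RT, within sub-cluster 5 it had 124 CPM and 601, 353 and 702 CPM, and within sub-cluster 2 it had 61.4 CPM and 340, 200 and 286 CPM. The direction was the same in each of the 3.

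Fn1 in monocytes was at 615 CPM in NT against 1707, 891 and 1227 CPM in RT. Its log2 ratio of 1.00 ± 0.47 was not counted because RT2 had 0.53 and RT3 0.99. F13a1 had 204 CPM in NT against 366, 265 and 503 CPM in RT, a ratio of 0.84 ± 0.46, and F10 had 59.2 CPM and 77.7, 72.1 and 92.7 CPM, a ratio of 0.43 ± 0.19. For these 3 genes each RT library lay above NT, but NT had only 43 UMIs of F10, with an interval of 42.8 to 79.7 CPM that reached RT1 and RT2. Plaur lay 0.29 ± 0.11 above NT and Plau 0.57 below it (ratio -0.57 ± 0.15), neither near the size counted. With at most 10% mitochondrial UMIs the ratio of Plau was -0.03. Thbs1, whose monocyte range no other type reached, had no common direction, with log2 ratios of 0.04 in RT1, -0.63 in RT2 and 0.34 in RT3. F3 had 42 UMIs in NT monocytes (57.8 CPM) and 13.99, 22.8 and 29.5 CPM in RT, a ratio of -1.46 ± 0.54 that was not counted, since RT3 was at -0.98. The part of free RNA in it was not tested. With at most 10% mitochondrial UMIs the ratio of F3 was -0.79, while under TMM scaling or with 5 UMIs added F3 was counted as lower.

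Other features of the monocytes moved along with these genes. Of the 6 monocyte markers 5 were higher in every RT library, among them Ly6c2 at 838 CPM in NT and 1838 to 2465 CPM in RT, and of the 9 macrophage markers 5 were lower and 2 higher. The 12 immediate early and heat shock genes, which respond to cell handling, summed to 66021 CPM in NT monocytes and 39781, 48808 and 25857 CPM in RT. Of these, 11 of 12 were lower in every RT library. Fos was the most abundant in NT (13533 CPM), RT1 and RT2 (10146 and 11148 CPM), and Zfp36 in RT3 (5501 CPM against 5378 CPM for Fos). Fibroblast markers, led by Col3a1, summed to 46.8 CPM in NT monocytes and 128, 80.1 and 156 CPM in RT, with 6 of 7 higher in every RT library, and neutrophil markers to 35.8 CPM and 109, 221 and 119 CPM, with 6 of 6 higher. Dendritic markers summed to 70.2 CPM in NT monocytes and 25.6, 30.3 and 34.7 CPM in RT, with 5 of 8 lower in every RT library. Fscn1, the most abundant marker, was not among these 5 (23.4 CPM in NT and 18.6, 17.6 and 26.4 CPM in RT), and Xcr1 had no UMI. The part of these shifts in the ratios was not tested. Platelet genes summed to 401 CPM in NT and 618 to 1209 CPM in RT monocytes, led by Ppbp in NT, RT1 and RT3 and by Pf4 in RT2. Of the 6 platelet genes found, the platelet-defining Itga2b and Gp1bb were the 2 with no UMI in monocytes of any library. Gp5, also a platelet gene, had 3 UMIs in RT2 monocytes and none in NT, RT1 or RT3. Rhox5, as a measure of tumor RNA in monocytes, was 52.3 CPM in NT and 53.5 to 75.8 CPM in RT.

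In macrophages none of the 8 genes was counted in either direction, where 3.33% of 7592 genes were counted as higher in RT and 1.84% as lower. Vcan was above NT in all 3 (19.1 CPM in NT against 42.6, 33.1 and 46.4 CPM in RT) with a log2 ratio of 1.07 ± 0.25, but RT2 had 0.78 and the share of cells was near that of lymphocytes. F13a1 had 476 CPM in NT against 1297, 588 and 938 CPM in RT, a ratio of 0.91 ± 0.57, with all RT values above the NT interval of 448 to 506 CPM. F10 had 13 UMIs in NT (5.77 CPM) and 8.11, 12.8 and 18.6 CPM in RT, a ratio of 1.06 ± 0.60. It too passed the minimum only through RT, so nothing is read from its being counted without RT1. Without RT2 Vcan was counted. Plau was lower in every RT library, from 888 CPM in NT to 619, 518 and 740 CPM, with a ratio of -0.52 ± 0.26, and Plaur was higher, from 296 CPM to 342, 366 and 423 CPM, with a ratio of 0.34 ± 0.16. Fn1 (0.12 ± 0.53) and Thbs1 (0.06 ± 0.38) had no common direction, and the mean ratio of Fn1 turned to -0.40 when the libraries were not integrated before clustering.

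The macrophage sub-clusters did not keep their shares. Cycling sub-cluster 11 was 18.5% of NT macrophages and 2.94% to 4.10% of those in RT, and sub-cluster 4 was 16.4% in NT and 21.3% to 21.4% in RT. Within sub-cluster 0, the largest in each library at 34.0% to 39.8%, F13a1 had 461 CPM in NT against 1590, 650 and 1117 CPM in RT, and Plau had 1141 CPM and 701, 588 and 904 CPM, both in the direction seen in all macrophages. Over the 6 macrophage sub-clusters F13a1 was higher in every RT library in 5 and Plau lower in 4. In sub-cluster 4 F13a1 had 755 CPM in NT against 1083, 501 and 765 CPM in RT (mean log2 ratio -0.02). Plau had no common direction in sub-clusters 3 (672 CPM against 703, 459 and 832 CPM, -0.07) and 4 (482 CPM against 456, 403 and 568 CPM, -0.04). In sub-cluster 4 Vcan took the other direction, with 59.0 CPM in NT and 53.3, 41.5 and 29.5 CPM in RT, from 24 UMIs in NT. In macrophages as a whole, the macrophage markers summed to 8666 CPM in NT and 13201 to 16064 CPM in RT, with 8 of 9 higher in every RT library. The most abundant was C1qc in NT and C1qb in each RT library. The monocyte markers summed to 219 CPM and 244 to 469 CPM, with 5 of 6 higher, and the fibroblast markers, led by Col3a1, to 25.3 CPM and 49.96 to 86.8 CPM, with 7 of 7 higher. The neutrophil markers, led by Csf3r, summed to 16.9 CPM in NT and 82.2, 142 and 54.6 CPM in RT, with 5 of 6 higher. Immediate early and heat shock genes summed to 55347 CPM in NT and 39860 to 46769 CPM in RT, with 6 of 12 lower in every RT library and 2 higher. The part of these sets in the ratios was not tested. Pf4, a chemokine gene named for platelets, led the platelet list in macrophages at 431 CPM in NT and 1220 to 1278 CPM in RT, while Itga2b had 0, 1, 2 and 0 UMIs and Gp1bb none. Pf4 was also the gene whose levels were most like those of F13a1 over cell types.

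In tumor cells 1 of 7 genes tested, F13a1, was counted as higher in RT and none as lower, where 1.97% of 11346 genes were counted as higher and 0.106% as lower. F13a1 had 11 UMIs in NT (0.20 CPM) and 142, 105 and 63 UMIs in RT (3.05, 1.76 and 1.04 CPM). It passed the minimum only through RT, while F10, with 3 UMIs in NT, did not pass it, so nothing is read from this count. The summed RT counts were 9.13-fold the NT level (exact 95% interval 5.03 to 18.5, for counting error only). The level in tumor cells was 0.0428% of that in macrophages in NT and 0.235%, 0.30% and 0.111% in RT, beside a median of 0.188% for the 9 macrophage markers (0.141% to 0.353%) and 0.374% for Lyz2, Tyrobp, Fcer1g and Cd68. All 9 macrophage markers, all 6 monocyte markers and Lyz2, Tyrobp, Fcer1g and Cd68 were likewise higher in tumor cells of every RT library. Lyz2 had 10.6 CPM in NT against 68.4, 80.5 and 37.7 CPM in RT. Macrophages were 6.22% of NT cells and 9.50% to 17.2% of RT cells. The part of free RNA and of doublets was not tested apart from leaving out the 8% highest doublet scores, after which the F13a1 levels in tumor cells were 0.0345% to 0.227% of those in macrophages. Without RT1 it had fewer than 200 UMIs and was not tested.

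Vcan and Fn1 in tumor cells were not at that level. For Vcan, NT had 58.7 CPM with an interval of 56.7 to 60.8, and RT1, RT2 and RT3 had 128, 110 and 124 CPM. The log2 ratio of 1.04 ± 0.11 was not counted because RT2 had 0.91. It was counted without RT2. The level was 16.8% to 33.3% of that in monocytes and was higher in every RT library in each of 6 tumor clusters. The Lum-led cluster had more Vcan than the named tumor cells, with 173 CPM in NT against 362, 372 and 278 CPM in RT, and when its cells were joined to the tumor cells, Vcan was counted. Fn1 had 398 CPM in NT against 832, 649 and 589 CPM in RT, a ratio of 0.78 ± 0.26, and was higher in every RT library in 5 of 6 tumor clusters. It differed widely between them, from 132 ± 82.2 CPM in cluster 0, led by cell cycle genes such as Ccna2 and Ccnb1, to 2004 ± 630 CPM in cluster 6, led by Dpt and Agt (mean ± SD of 4 libraries). Fibroblast markers, led by Col3a1, summed to 848 CPM in NT tumor cells and 1485, 1090 and 1305 CPM in RT, with 4 of 7 higher in every RT library, and their part in the ratios was not tested.

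F3 in tumor cells had no common direction, at 210 CPM in NT against 170, 146 and 222 CPM in RT (log2 ratio -0.25 ± 0.31), and in the Lum-led cluster all RT values (320, 342 and 441 CPM) were above NT at 283 CPM. F3 was highest in tumor cluster 6 as well, at 348 ± 74.3 CPM, and lowest in cluster 0, at 113 ± 26.7 CPM. Plau and Plaur also lacked a common direction in tumor cells, with ratios of 0.15 ± 0.35 and 0.09 ± 0.10. In the Lum-led cluster Plau was lower in every RT library, at 357 CPM in NT against 223, 311 and 244 CPM in RT. Plaur had no common direction there, at 101 CPM in NT against 107, 73.2 and 107 CPM in RT. Thbs1 was lower in every RT library (48.2 CPM in NT against 22.4, 39.9 and 34.5 CPM in RT), with a level of 0.264% to 0.750% of that in monocytes and a share of cells that overlapped that of lymphocytes. By cluster it had no common direction, since it was lower in every RT library in 4 of 6 tumor clusters and higher in 1, cluster 0, the largest, with 5.84 CPM in NT against 11.9, 9.46 and 13.3 CPM in RT, and the difference between clusters was not tested. F10 had 3 UMIs in NT tumor cells and 6, 12 and 16 in RT, and at 0.0939% to 0.286% of the monocyte level it was not tested. Hypoxia genes, which were checked beside these values, summed to 4211 CPM in NT tumor cells and 3752, 2680 and 3471 CPM in RT.

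The pathway lists were counted between RT and NT by the same rule, and the shares over all genes are those given above. In the matricellular and provisional matrix list none of 6 tested genes in monocytes, 6 in macrophages or 14 in tumor cells was counted. In the versican and hyaluronan list Vcan was the gene counted in monocytes (1 of 3) and none of 3 in macrophages, and in tumor cells 1 of 11, Dcn, which encodes the small proteoglycan decorin and is also among the fibroblast markers, had 34.7 CPM in NT against 160, 71.6 and 122 CPM in RT. Of the matrix receptors, 15 tested in monocytes gave Tlr4, a receptor for matrix fragments among other ligands, as higher (13 UMIs or 17.9 CPM in NT and 52.0 to 63.7 CPM in RT) and Itgax as lower (118 CPM in NT and 29.5 to 55.3 CPM in RT). Tlr4 passed the minimum of UMIs only through RT, so nothing is read from its count. Itgax was also the 1 counted of 16 in macrophages, lower at 121 CPM in NT against 22.7 to 36.7 CPM in RT. It encodes the integrin subunit CD11c, which dendritic cells also carry, and in monocytes it moved with the dendritic markers given above. In macrophages 3 of 8 dendritic markers were lower in every RT library and 4 higher. Their part in it was not tested. Itgam, the integrin subunit of myeloid cells, was the 1 counted of 15 in tumor cells, at 21 UMIs or 0.39 CPM in NT and 1.31 to 4.07 CPM in RT, where the monocyte markers summed to 2.21 CPM in NT and 7.06 to 13.02 CPM in RT. Itgam also passed the minimum only through RT, and nothing is read from its count.

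Of the coagulation factors none of 5 was counted in monocytes. In macrophages the 1 counted of 5 was F5, which passed the minimum only through RT, so nothing is read from its count. It had 1 UMI in NT and 94, 83 and 41 UMIs in RT, a 19.98-fold ratio of summed counts with a counting interval of 3.55 to 793. In tumor cells the 1 counted of 4 was F13a1, described above. None of the 2, 4 and 6 tested anticoagulants and thrombin receptors in monocytes, macrophages and tumor cells was counted. In the plasminogen list S100a10, the partner of annexin A2 in binding plasminogen, was the 1 counted of 9 in monocytes, from 381 CPM in NT to 779, 889 and 835 CPM in RT, and none of 9 in macrophages or 10 in tumor cells was counted. The list medians of the log2 ratio in monocytes were 0.43 for the matricellular genes, 1.04 for versican and hyaluronan, -0.14 for the receptors, 0.20 for the coagulation factors, 0.88 for anticoagulants and -0.07 for plasminogen activation, beside 0.13 for all genes. Over the 8 genes the medians were 0.36 in monocytes, 0.23 in macrophages (all genes 0.01) and, for the 7 tested in tumor cells, 0.15 (all genes -0.03).

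The genes most like each of the 8 were ranked by the Pearson correlation of log2(CPM + 1) over the 7 cell types with at least 20 cells in every library, in 4 libraries, 28 points that share libraries and depth. Thbs1 was most like Picalm (0.95), Ets2 (0.95) and Csf2rb (0.94), F10 most like Gapt (0.94), Sirpb1a (0.94) and Bcl2a1a (0.93), and Plaur most like Klf3 (0.94), Bach1 (0.92) and Gab2 (0.89). F13a1 was most like Pf4 (0.93), Pdpn (0.91) and Atp6v1b2 (0.90), Plau most like Lgmn (0.91), P2rx7 (0.89) and Selenop (0.87), and F3 most like Frmd6 (0.93), Atxn10 (0.90) and Gm364 (0.90). Fn1 and Vcan had no close match over these 7 types, with Ywhag (0.76), Casp6 (0.76) and Zbtb18 (0.73) for Fn1 and Emilin2 (0.78), Chil3 (0.77) and Azin1 (0.75) for Vcan. Fibroblasts, where Fn1 was highest, were not among these types, since NT held only 18 of them. Within the group, Thbs1 and Plaur were the closest pair (0.88), and F3 and F13a1 were the farthest apart (-0.69).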

How the data were processed

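The authors deposited UMI counts as whole numbers, not normalized, in 1 table per library, from SeekOne MM 3′ libraries sequenced on a NovaSeq instrument and processed with SeekOne Tools. The submitters' processing notes also name STAR 2.5.1b, featureCounts, Subread 1.6.4 and Cell Ranger, and the builds GRCm39 and mm39, without their roles. The RT2 table lists 18605 genes, the others 32285, and its highest mitochondrial share was 11.95%, against at least 91.5% elsewhere. Reads were counted per gene and strand handling is not given in the sources used here.

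Cells needed 200 detected genes or more and 20% mitochondrial UMIs or less. After scaling to 10000 UMIs a cell, 2000 variable genes gave 30 principal components, which were integrated over libraries with a rewritten Harmony (theta 2, lambda 1, sigma 0.1, seed 1). Clustering used 20 neighbors and Leiden resolution 0.8 (leidenalg 0.10.2, scanpy 1.11.5, Python 3.11.15). The 8 genes and the pathway lists, 126 symbols, did not build clusters. Each cluster was given the class with the highest mean marker level relative to the highest cluster. It stayed unnamed with fewer than 3 markers above the mean, more markers of another class among its top 10 genes, shallow cells without own markers there or, for sub-clusters, a mixed tumor score. This rule was settled after clusterings had been seen. No doublets were removed in the main analysis. Scrublet scores, as run in scanpy, served to leave out the 8% highest per library as an alternative.

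UMIs were summed per library and cell type and given as CPM. The size rule, the 0.5 UMI added and the minimum of 200 UMIs are given with the results, and no p-value was computed, since NT is 1 library. TMM factors came from edgeR 4.0.16 (R 4.3.3) as an alternative. The size rule was tested on simulated data. Named genes were the 8 members, at most 4 counted genes per list and comparison, the 3 most like genes, the most abundant or defining genes of check lists, and the tumor markers. Members and lists were chosen with earlier results of these data known. Nothing in the labels ties a library to a batch other than its group. Alternatives covered the mitochondrial limit, totals, scaling, means over cells, doublets, clustering, the UMI minimum, the added UMIs and each RT library left out.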

Additional observations from a re-analysis of the deposited data

Results flagged for a closer look

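Within monocytes or within macrophages, 3 genes had every RT library on one side of NT in a sub-cluster and every RT library on the other side in another, among sub-clusters with at least 10 UMIs of the gene in NT. The differences between sub-clusters were not tested, and all ratios share the NT library. Plau was higher in RT in monocyte sub-cluster 1, with a mean log2 ratio of 0.64 from 14 UMIs in NT, and lower in sub-clusters 2 (-0.57) and 5 (-0.64). Thbs1 was higher in RT in the cycling macrophage sub-cluster 11 (0.63) and lower in macrophage sub-clusters 0 (-0.49) and 10 (-1.64), where NT held 18 cells of sub-cluster 10. Fn1 was higher in RT in macrophage sub-clusters 11 (1.76) and 0 (0.50) and lower in 7 (-0.50).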

How the results depend on the processing

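No recomputed log2 ratio of a counted gene changed sign. Of 464 ratios of the 8 genes under the alternatives, 434 moved by less than 1 SD over libraries and 30 by more. With at most 10% mitochondrial UMIs the ratio of Plau in monocytes went from -0.57 to -0.03. Vcan was counted in monocytes under each alternative. F3 was counted as lower there as well, giving 2 genes, under TMM scaling and with 5 UMIs added. In macrophages, leaving out 1 RT library gave 0 to 1 of the 8 genes. In tumor cells it gave 0 to 2, with 0 without RT1, where F13a1 fell under the minimum of 200 UMIs, and Vcan was counted beside F13a1, giving 2 genes, in means over cells and with the Lum-led cluster (added after the data were seen). Between monocytes and macrophages 5 to 7 of the 8 genes were counted under the alternatives, with Thbs1, Vcan, F10 and Plaur in each. Fn1 was not counted without integration, Plau not at resolution 0.4, F3 was added with at most 10% mitochondrial UMIs, and F13a1 without RT3. Counts over all genes moved most with the minimum of 50 UMIs, from 244 to 540 in monocytes, 393 to 745 in macrophages and 236 to 452 in tumor cells. With 5 UMIs added, 127 were counted in monocytes. Without 1 RT library, 235 to 382 were counted in tumor cells. The cause of the other changes was not tested. No paired analysis was possible because no label pairs the pooled NT library with an RT library. Depth limits F10 and F3 in the 469 NT monocytes (43 and 42 UMIs).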
